A study of Mus musculus with 7 samples.

Results

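Inherited sideroblastic anemia is a blood disorder in which developing red cells lay down iron in their mitochondria, and mutations in several genes of mitochondrial metabolism cause it in humans. The 6 mouse genes followed here, Glrx5, Pus1, Slc25a38, Slc19a2, Trnt1 and Hspa9, were chosen by name as genes of this disorder and not by a rule on their values, although earlier results of these data were known when they were chosen. Every probe set that the platform annotation matches to one of these genes alone was taken, which gave 13 of the 45037 probe sets tested and 6 of the 18193 genes with a probe set of their own. Glrx5, Pus1 and Slc25a38 had 1 probe set each, Trnt1 had 2, Slc19a2 had 3 and Hspa9 had 5. Expression was measured on Affymetrix mouse arrays in erythroblasts that lacked SOD2, the manganese superoxide dismutase of the mitochondrial matrix, and in their Sod2+/+ counterparts. There were 3 Sod2-/- samples, replicates 31, 35 and 39, and 4 Sod2+/+ samples, replicates 17, 29, 33 and 37. A further Sod2-/- array that the study describes was not analysed here.

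In both groups the cells came from littermate donors bred from parents heterozygous for the Sod2tm1Cje allele on a B6 background, whose livers were taken as embryos in mid to late gestation. Donor cells of either genotype were injected into irradiated Ly5.1 congenic C57BL/6 hosts aged 11 to 15 weeks, and TER-119+ CD71+ erythroblasts were later sorted from the bone marrow of those hosts. SOD2 was therefore missing from the transplanted blood cells and not from the host, whose own surviving blood cells the TER-119 and CD71 gate does not separate from donor cells. The gate spans several stages of erythroblast maturation, and the study reports more basophilic erythroblasts, an early stage, in Sod2-/- marrow. The sources used here do not say whether the arrays came from separate hosts, and the p-values therefore cover the spread between arrays alone.

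Erythroblasts make heme in the last steps inside mitochondria, and iron-sulfur clusters built in the same organelle help to set how much iron the cell takes up and uses. When heme synthesis, cluster assembly or mitochondrial translation fails in these cells, iron can build up in the mitochondria around the nucleus and gives the ring seen in a sideroblast. The 6 genes act at different points of this system. Glrx5 passes new iron-sulfur clusters on to other proteins, and Hspa9 is the mitochondrial HSP70 chaperone that takes part in the same transfer and in protein import. Slc25a38 carries glycine into mitochondria for the first step of heme synthesis. Slc19a2 brings the vitamin thiamine into the cell. Pus1 turns uridine into pseudouridine in tRNAs, and Trnt1 adds the CCA end that every tRNA needs.

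Levels are the authors' log2 values from RMA, a procedure that corrects background, aligns the arrays and joins the probes of a probe set, and 1 unit of them is a 2-fold difference. Log2 fold changes are Sod2-/- minus Sod2+/+, and those below 0 mean less signal in Sod2-/- erythroblasts. Genotypes were compared by limma, with p-values adjusted by Benjamini-Hochberg over all 45037 probe sets. The brightest probe set of a gene, by its mean over the 7 arrays, stands for the gene. Sod2-/- replicate 31 and Sod2+/+ replicates 17 and 29 ran on fluidics station 1 and the other arrays on station 2. Sod2-/- replicates 31 and 39 came from a chip lot of their own, and Sod2-/- replicate 35 shared its lot with all Sod2+/+ arrays. Samples of both genotypes were sorted in parallel on several sorters, but which sorter took which sample is not stated. Array medians were between 4.475 and 4.537 in Sod2-/- samples and between 4.45 and 4.488 in Sod2+/+ samples. The 95th percentile lay at 8.202 to 8.424 in Sod2-/- samples, against 8.421 to 8.713 in Sod2+/+ samples. All 11 erythroblast markers measured of 12 listed were above 8 on the log2 scale, and 0 of them passed the test. Their summed linear level was 37020 to 40300 in Sod2-/- samples, against 35700 to 36910 in Sod2+/+ samples. In Tal1, Ank1, Tfrc and Alas2 all Sod2-/- values lay above all Sod2+/+ values, as in 7.84% of all probe sets. The brightest Sod2 probe set averaged 8.39 ± 0.27 in Sod2-/- and 8.43 ± 0.20 in Sod2+/+ samples (SD, n = 3 and 4). Since some Sod2 probe sets lie outside the exon that the allele deletes, this is no check of the genotype.

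No difference between genotypes passed the test in any of the 6 genes. Of the 13 probe sets, 0 were lower and 0 were higher in Sod2-/- erythroblasts at an adjusted p under 0.05, where 2.83% of all probe sets were lower and 0.566% were higher. On the brightest probe set of each gene, 0 of 6 passed in either direction, beside 4.47% lower and 0.412% higher of all genes. Over all probe sets these shares are 1275 lower and 255 higher, and quantile normalization gave 826 lower and 656 higher, with 0 of the 13 among them. A count of 0 of 13 is near these backgrounds and does not set the genes apart. One probe set, of Hspa9, had an unadjusted p under 0.05, as did 19.5% of all probe sets. After adjustment the methods' t-test called 0 of the 13, but it called only 3 lower and 1 higher of all probe sets with equal variances and 0 with unequal ones, so nothing about these genes follows from that count.

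The 95% interval from limma lay within a 1.5-fold change either way for all 13 probe sets, and 12 of the 13 intervals held 0. Log2 fold changes ran from -0.31 to 0.19, with 6 below 0, 7 above 0 and a median of 0.02, where the median over all probe sets was 0.03. The genotypes overlapped in 12 of the 13 probe sets. In 1 all Sod2-/- values lay below all Sod2+/+ values, as in 10.2% of all probe sets, and in 0 all lay above, as in 7.84% of all. The arrays hold RNA of sorted cells in bulk, so fewer cells of a type and less RNA per cell cannot be told apart. Markers of other cell types also varied between arrays. The summed linear level of 12 B cell markers, 7 of them lower by limma, was 413 to 504 in Sod2-/- samples, against 799 to 951 in Sod2+/+ samples. Cd79a, which carries signals from the B cell receptor, averaged 5.19 in Sod2-/- and 6.97 in Sod2+/+ samples, whereas the B cell regulators Pax5 and Ebf1 were near the array medians in both. The sum of 12 neutrophil markers, 10 of them above 8 and 0 called, was 34380, 16530 and 22940 in Sod2-/- replicates 31, 35 and 39, against 34570 to 43230 in Sod2+/+ samples, so replicate 31 stood beside the Sod2+/+ arrays and the other Sod2-/- arrays below them. Of 9 macrophage markers 0 passed, but Sod2-/- replicate 39 stood apart, with a sum of 1442, against 478 and 375 in Sod2-/- replicates 31 and 35 and 460 to 552 in Sod2+/+ samples. The complement gene C1qc was at 8.33 in that replicate and at 3.75 to 4.68 on the other 6 arrays. C1qa, C1qb, Cd68, Csf1r and Adgre1 were also at their highest in that replicate, at 7.65, 8.09, 6.05, 8.69 and 5.03. The rest of the list, Cd163, Mrc1 and Vcam1, were at 3.59, 5.25 and 6.41 there, within the range of the other arrays. Among the markers of T cells (6 measured) and megakaryocytes (5), 0 passed, and their sums were 243 to 257 and 277 to 305 in Sod2-/- samples, against 224 to 247 and 303 to 375 in Sod2+/+ samples. The log2 signal of the 3' Gapdh control probe set over the 5' one, a sign of RNA quality, was 1.098 to 1.209 in Sod2-/- samples, against 1.235 to 1.448 in Sod2+/+ samples, while that of the actin controls overlapped. The part of these differences in the values of the 6 genes and their partners was not tested.

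**Figure D1:**
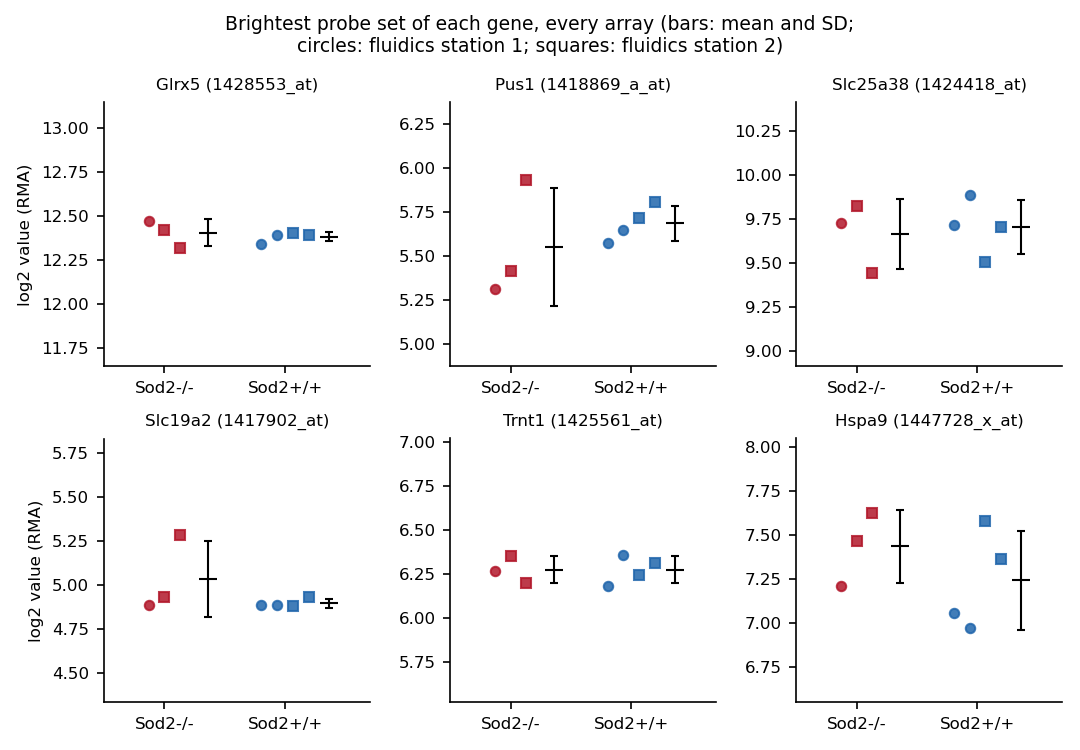
Log2 RMA value of the brightest probe set of each of the 6 genes on each array, with Sod2-/- samples (n = 3, red) left of Sod2+/+ samples (n = 4, blue). Bars are the mean and SD, circles are arrays of fluidics station 1 and squares those of station 2, and every vertical axis spans the same width of 1.5 log2 units but starts elsewhere. The genotypes overlap in each of the 6 panels.

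The iron-sulfur and glycine steps had members that were bright on every array. Glrx5 (chromosome 12, 105032618 to 105040911, GRCm38.p6) and Slc25a38 (chromosome 9, 120110377 to 120126093) both stood above the 95th percentile of each of the 7 arrays. Their starts are shown for that reason, as 250 bases that end at the start site of the RefSeq promoter table on GRCm38.p6, plus strand, with the motifs searched in capitals. The 4 motifs, searched on both strands with overlaps counted, were CCAAT, the GATA-type site AGATAA, the KLF-type site CCNCNCCC and the ETS-type site CCGGAAG.
Glrx5, chr12:105032368-105032617: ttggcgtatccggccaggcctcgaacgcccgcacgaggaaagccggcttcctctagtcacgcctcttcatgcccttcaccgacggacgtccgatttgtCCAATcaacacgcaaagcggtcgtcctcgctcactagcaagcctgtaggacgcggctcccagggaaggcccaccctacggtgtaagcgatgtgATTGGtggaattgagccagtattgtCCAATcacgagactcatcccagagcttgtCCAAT
Slc25a38, chr9:120110132-120110381: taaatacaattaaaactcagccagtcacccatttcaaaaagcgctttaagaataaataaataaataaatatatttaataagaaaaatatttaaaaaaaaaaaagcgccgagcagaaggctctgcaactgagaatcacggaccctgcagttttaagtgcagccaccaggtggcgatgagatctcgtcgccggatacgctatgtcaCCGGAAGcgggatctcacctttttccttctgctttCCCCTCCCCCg
The Glrx5 window held CCAAT 4 times, 3 times on the plus strand and 1 time on the minus strand, where it reads ATTGG. Of 32536 promoter windows of the same length, 33.8% held CCAAT and 0.842% held it at least 4 times. The Slc25a38 window held CCGGAAG 1 time, as 6.95% of windows did at least once, and CCNCNCCC 2 times at overlapping positions, as 27.5% did at least that often. AGATAA was in neither window and in 9.97% of all. The table gave 1 window for Slc19a2 and 2 for Pus1, which are not printed, and Trnt1 and Hspa9 had no entry.

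Glrx5, the monothiol glutaredoxin that hands on iron-sulfur clusters in the mitochondrial matrix, stood at 12.470, 12.422 and 12.318 in Sod2-/- replicates 31, 35 and 39, and at 12.342, 12.391, 12.404 and 12.392 in Sod2+/+ replicates 17, 29, 33 and 37. The Sod2-/- samples held both the highest and the lowest of the 7 values. The means were 12.40 ± 0.08 in Sod2-/- and 12.38 ± 0.03 in Sod2+/+ samples (SD, n = 3 and 4). The log2 fold change was 0.02 (standard error 0.07, 95% interval -0.13 to 0.17, limma adjusted p = 0.904). The interval reaches from 1.09-fold lower to 1.12-fold higher. Within station 1 the difference was 0.10 and within station 2 it was -0.03. Among the 107 probe sets within 0.5 log2 units of its brightness, the median log2 fold change was -0.14, with quartiles of -0.23 and 0.03, and Glrx5 lay inside that range. So did 10 of the 13 probe sets with theirs, and the 3 outside were 1425562_s_at of Trnt1 and 1418503_at of Hspa9, both below the lower quartile, and 1447728_x_at of Hspa9, above the upper one.

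Slc25a38, the glycine carrier of erythroid mitochondria, read 9.725, 9.824 and 9.439 in Sod2-/- samples, against 9.717, 9.883, 9.507 and 9.706 in Sod2+/+ samples. Each genotype had 1 array well below the rest, Sod2-/- replicate 39 and Sod2+/+ replicate 33, and the ranges overlapped over most of their width. The log2 fold change was -0.04 (standard error 0.12, 95% interval -0.30 to 0.22, limma adjusted p = 0.893), which allows 1.23-fold lower to 1.17-fold higher. Its sign was not settled: it was -0.08 within station 1 and 0.03 within station 2. Probe sets of like brightness had a median of -0.22 with quartiles of -0.43 and 0.04, a range that also held Slc25a38.

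Slc19a2 (chromosome 1, 164249046 to 164265385), the high-affinity thiamine transporter, was measured by 3 probe sets. The brightest, 1417902_at, read 4.887, 4.929 and 5.284 in Sod2-/- samples and 4.883, 4.887, 4.880 and 4.932 in Sod2+/+ samples. Sod2-/- replicate 39 was the only array above 5, and the other 6 values ran from 4.880 to 4.932. The log2 fold change was 0.14 (standard error 0.10, 95% interval -0.09 to 0.36, limma adjusted p = 0.501), with 0.00 in station 1 and 0.20 in station 2, the station that holds replicate 39. Without that array, the one with the highest sum of macrophage markers, it was 0.012 (limma adjusted p = 0.960). On 1426117_a_at, whose suffix marks a probe set shared by transcripts of the same gene, it was 0.06 (limma adjusted p = 0.766), and there replicate 35 and not 39 was the highest Sod2-/- value, at 4.168. On 1441315_s_at, whose suffix marks probes that several transcripts can share, it was 0.05 (limma adjusted p = 0.876). The brightest averaged 5.03 in Sod2-/- and 4.90 in Sod2+/+ samples, not far above 4.484, the median of all probe set means. The means of 1426117_a_at and 1441315_s_at lay below that median. RMA gives no call of presence, so these values do not show that Slc19a2 was expressed.

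Pus1 (chromosome 5, 110773667 to 110780649), the pseudouridine synthase of both cytosolic and mitochondrial tRNAs, had the widest spread among Sod2-/- samples of the 13 probe sets. Its probe set 1418869_a_at read 5.311, 5.412 and 5.934 in Sod2-/- samples, against 5.573, 5.646, 5.714 and 5.807 in Sod2+/+ samples. Sod2-/- replicates 31 and 35 lay below every Sod2+/+ value and replicate 39 lay above every one. The means were 5.55 ± 0.33 in Sod2-/- and 5.68 ± 0.10 in Sod2+/+ samples, and the log2 fold change was -0.13 (standard error 0.14, 95% interval -0.46 to 0.19, limma adjusted p = 0.672). Without Sod2-/- replicate 39, again the array with the highest sum of macrophage markers, it was -0.32 (limma adjusted p = 0.125). Without Sod2-/- replicate 31 it was -0.01 (limma adjusted p = 0.977). This interval reaches 1.37-fold lower.

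Trnt1 (chromosome 6, 106769138 to 106782474), the enzyme that adds CCA to tRNAs, had the smallest difference of the 6 genes. Its brightest probe set, 1425561_at, read 6.263, 6.352 and 6.199 in Sod2-/- samples and 6.183, 6.354, 6.244 and 6.314 in Sod2+/+ samples. The Sod2-/- values fell inside the range of the Sod2+/+ values. The log2 fold change was -0.002 (standard error 0.07, 95% interval -0.17 to 0.16, limma adjusted p = 0.992). The second probe set, 1425562_s_at, read 4.331, 4.415 and 4.250 in Sod2-/- samples and 4.363, 4.540, 4.497 and 4.798 in Sod2+/+ samples, with a log2 fold change of -0.22 (standard error 0.10, limma adjusted p = 0.297). It is 1 of 4 member probe sets whose mean lay below 4.484, the median of all probe set means, where RMA gives no call of presence.

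**Figure D2:**
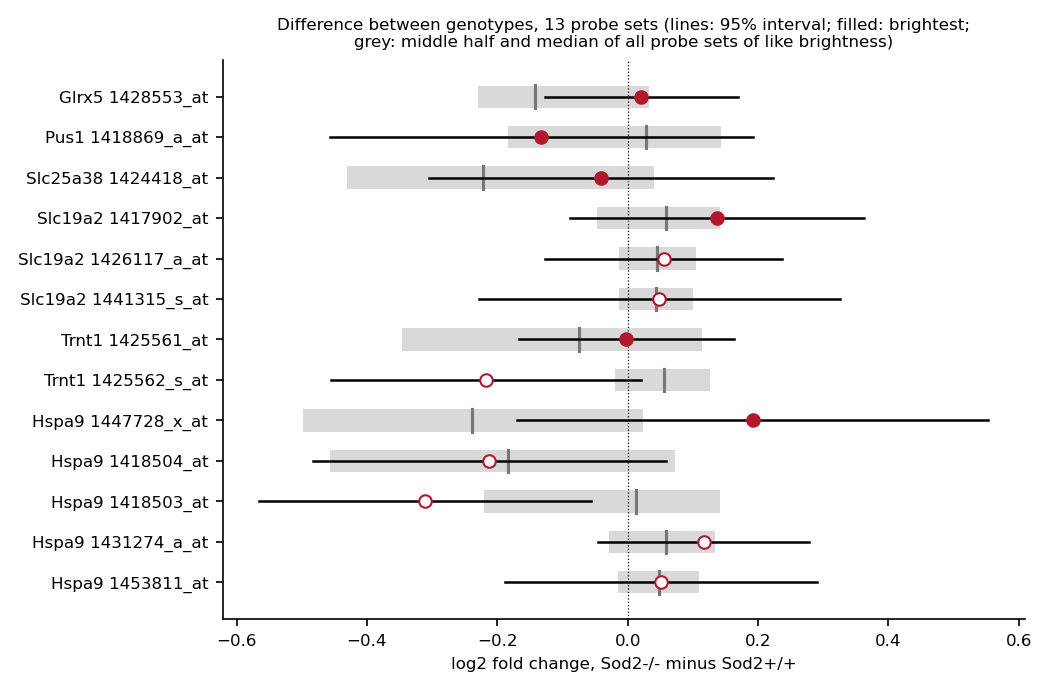
Log2 fold change, Sod2-/- minus Sod2+/+, of each of the 13 probe sets, with lines for the 95% interval from limma and filled points for the brightest probe set of a gene. Grey bars give the quartiles and grey ticks the median of all probe sets within 0.5 log2 units of the same brightness; 12 of the 13 intervals cross 0, and all lie within 1.5-fold either way.

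Hspa9 (chromosome 18, 34937414 to 34954351) was the gene whose probe sets differed most from each other. Its brightest probe set, 1447728_x_at, carries the suffix for probes that can also bind other transcripts. It read 7.209, 7.466 and 7.623 in Sod2-/- samples, against 7.054, 6.969, 7.579 and 7.360 in Sod2+/+ samples, a log2 fold change of 0.19 (standard error 0.16, 95% interval -0.17 to 0.55, limma adjusted p = 0.564). With quantile normalization it was 0.42, and without each array in turn 0.10 (Sod2-/- replicate 39 left out) to 0.30 (Sod2+/+ replicate 33 left out). Its values followed the fluidics station: station 1 averaged 7.21 in Sod2-/- and 7.01 in Sod2+/+ samples, and station 2 averaged 7.54 in Sod2-/- and 7.47 in Sod2+/+ samples. Within the stations the difference was 0.20 and 0.07, on 1 Sod2-/- and 2 Sod2+/+ arrays in station 1 and on 2 arrays of each genotype in station 2.

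A pair of other Hspa9 probe sets, both with the plain suffix of a single transcript, had negative values, while 1453811_at, with the same suffix, was at 0.05. Probe set 1418503_at read 5.708, 5.311 and 5.746 in Sod2-/- samples and 6.015, 5.819, 5.879 and 5.883 in Sod2+/+ samples. It was the only one of the 13 in which the genotypes did not overlap. The means were 5.59 ± 0.24 in Sod2-/- and 5.90 ± 0.08 in Sod2+/+ samples, and the log2 fold change was -0.31 (standard error 0.11, 95% interval -0.57 to -0.06, unadjusted p = 0.0222 and adjusted p = 0.168, both from limma), 1.24-fold lower with an interval that reaches 1.48-fold. It was -0.21 in station 1 and -0.35 in station 2. With chip lot as a block it was -0.59 and passed (limma adjusted p = 0.0452), while its adjusted p over all alternatives tried ran from 0.0452 to 0.871, and without Sod2-/- replicate 35 it was -0.17 (adjusted p = 0.410). That block sets Sod2-/- replicate 35 alone against the Sod2+/+ arrays, because the other lot holds Sod2-/- samples only.

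Probe set 1418504_at read 6.823, 6.569 and 6.763 in Sod2-/- samples and 6.995, 6.869, 6.686 and 7.173 in Sod2+/+ samples. The genotypes overlapped through Sod2+/+ replicate 33, and the log2 fold change was -0.21 (limma adjusted p = 0.376). On 1431274_a_at it was 0.12 (limma adjusted p = 0.416), and on 1453811_at, which is dimmer than the median probe set, 0.05 (limma adjusted p = 0.844). Hspa9 thus had 3 probe sets above 0 and 2 below, and the mean over all 5 gave -0.03 in place of 0.19. Where each probe set lies in the transcript was not analysed here, so the data give no single direction for Hspa9.

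**Figure D3:**
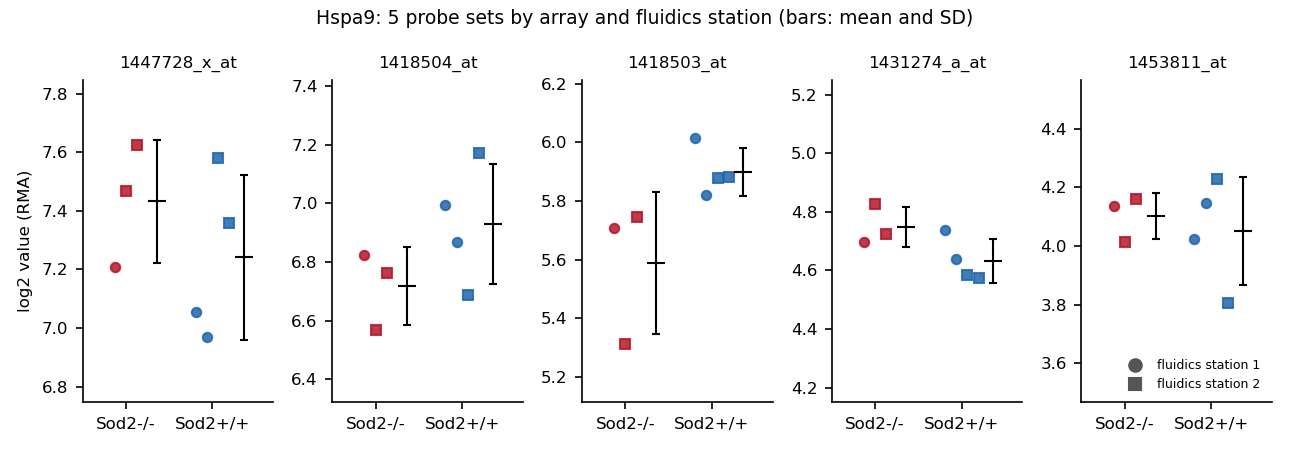
Log2 RMA values of the 5 Hspa9 probe sets on each array, with Sod2-/- samples (red) left of Sod2+/+ samples (blue), circles for fluidics station 1 and squares for station 2. Bars are the mean and SD (n = 3 and 4); the vertical axes have the same width and different starting values. Only in 1418503_at do all Sod2-/- values lie below all Sod2+/+ values, and in 1447728_x_at the circles lie below the squares of their genotype.

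Further genes of the same human disorder, outside the 6, were also not called. Measured were 5 such genes, Alas2, Hscb, Lars2, Yars2 and Ndufb11. The median log2 fold change of the 5 was 0.04, against 0.02 over all genes, and 0 passed in either direction. Alas2, the erythroid enzyme that starts heme synthesis and the gene of the X-linked form, read 13.132, 13.198 and 13.072 in Sod2-/- samples, against 13.039, 12.991, 13.017 and 12.972 in Sod2+/+ samples. All Sod2-/- values lay above all Sod2+/+ values, and the log2 fold change was 0.13 (standard error 0.06, 95% interval -0.01 to 0.27, limma adjusted p = 0.306). That is at most 1.21-fold higher by its interval. Hscb, the co-chaperone that works with the mitochondrial HSP70 in cluster transfer, was at 0.04 (limma adjusted p = 0.853). Lars2 and Yars2, which charge mitochondrial tRNAs with leucine and tyrosine, were at 0.09 and -0.17 (adjusted p = 0.800 and 0.306). The dimmer Lars2 probe sets 1435682_at and 1443672_at had the opposite sign, at -0.19 and -0.04 (limma adjusted p = 0.243 and 0.799). Ndufb11, a subunit of respiratory complex I, was at -0.11 (adjusted p = 0.695).

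The partners of the 6 genes were read from 5 lists of pathway genes, each gene by its brightest probe set. Most of the calls stood in the lists around Glrx5 and Hspa9. Of 15 measured genes of mitochondrial iron-sulfur cluster assembly, 2 were lower and 0 higher, where 4.47% of all genes were lower and 0.412% higher. Values were below 0 in 11, and the median log2 fold change was -0.51, against 0.02 over all genes. Other probe sets as bright leaned the same way. The probe sets of like brightness to each gene had medians whose own median was -0.22, and 10 of the 15 genes lay below the lower quartile of theirs and 2 above the upper one. With each gene's probe sets averaged this median was -0.21, and with quantile normalization -0.34. Ndufab1, the acyl carrier protein that is part of the assembly complex, was lower (log2 fold change -0.66, standard error 0.11, limma adjusted p = 0.0243). It read 7.680, 7.472 and 7.732 in Sod2-/- samples and 8.330, 8.416, 8.041 and 8.362 in Sod2+/+ samples, and the call was lost without Sod2-/- replicate 35, Sod2+/+ replicate 29 or Sod2+/+ replicate 37 (adjusted p = 0.0830, 0.0617 and 0.0673). With the mean of all its probe sets the value was -0.18 (adjusted p = 0.0989). Lyrm4, the small protein that stabilises the cysteine desulfurase, was lower too (-0.63, limma adjusted p = 0.0497) but among the 7 omissions of an array it passed only without Sod2-/- replicate 31 (adjusted p = 0.0476), with adjusted p from 0.0672 to 0.124 without each of the others.

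The direct partners named for this pathway did not pass. Nfs1, the desulfurase that supplies the sulfur, read 7.753, 7.234 and 6.998 in Sod2-/- samples and 7.777, 8.189, 7.747 and 8.122 in Sod2+/+ samples (log2 fold change -0.63, limma adjusted p = 0.101). Its difference was -0.23 in station 1 and -0.82 in station 2. Iscu, the scaffold on which a cluster is built, was at -0.27 (limma adjusted p = 0.145), and Grpel1, the nucleotide exchange factor of the mitochondrial HSP70, at -0.60 (adjusted p = 0.0781). Glrx5 at 0.02 and Hscb at 0.04 thus stood beside Nfs1, Lyrm4 and Ndufab1 at -0.63 to -0.66. The difference between these genes was not tested.

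Of 13 measured matrix chaperones and proteases, the setting in which Hspa9 works, 3 were lower and 0 higher, beside the same 4.47% and 0.412% of all genes. Values were below 0 in 12. Of the 13, 8 lay below the lower quartile of probe sets of like brightness and 1 above the upper one. The medians of those probe sets had a median of -0.20. The median of the list was -0.38, which was -0.26 with the mean of all probe sets and -0.18 with quantile normalization. Hspd1, the matrix chaperonin, was at -0.67 (standard error 0.13, limma adjusted p = 0.0368), its lid Hspe1 at -0.57 (standard error 0.11, limma adjusted p = 0.0321) and the protease Lonp1 at -0.55 (standard error 0.12, limma adjusted p = 0.0460). In each of the 3 all Sod2-/- values lay below all Sod2+/+ values. The calls were thin: Hspd1 and Lonp1 passed only without Sod2+/+ replicate 33 (adjusted p = 0.0454 and 0.0422) among the 7 omissions, at 0.0524 to 0.120 and 0.0583 to 0.116 without each other array. Hspe1 passed when Sod2-/- replicate 39 (0.0254) or Sod2+/+ replicate 33 (0.0496) was left out, and was at 0.0645 to 0.102 without each other array. The brightest Hspa9 probe set, at 0.19, and the chaperonin pair lay on opposite sides of 0, while 1418503_at and 1418504_at lay on the same side as the pair.

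Of 23 measured genes of tRNA maturation, the list around Pus1 and Trnt1, 1 was lower and 0 higher, a share near the 4.47% of all genes that were lower. Values were below 0 in 16, and the median was -0.05, beside 0.04 for probe sets of like brightness. Of the 23 genes, 13 lay below the lower quartile of probe sets of like brightness and 2 above the upper one. The lower gene was Hsd17b10, a dehydrogenase that is also a subunit of mitochondrial RNase P, which cuts tRNAs out of the mitochondrial transcript (log2 fold change -0.75, standard error 0.14, limma adjusted p = 0.0328). It read 6.777, 6.274 and 6.622 in Sod2-/- samples and 7.341, 7.507, 7.040 and 7.336 in Sod2+/+ samples. The call was lost without Sod2-/- replicate 35 or 39 or Sod2+/+ replicate 17, 29 or 37, at 0.0639 to 0.0965, and kept without the other two arrays, at 0.0366 and 0.0293.

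Of 15 measured genes of mitochondrial glycine, heme and iron handling, the list around Slc25a38, 0 passed, 7 had values below 0 and 8 above, and the median was 0.00, beside -0.17 for probe sets of like brightness. Of the 15 genes, 1 lay below the lower quartile of probe sets of like brightness and 6 above the upper one. Slc25a37, the mitochondrial iron importer of erythroblasts, averaged 12.21 in both genotypes (log2 fold change 0.004, limma adjusted p = 0.988). The largest values of the list were those of Shmt2 and Alas1. Shmt2, the mitochondrial enzyme that makes glycine from serine, read 9.372, 8.744 and 9.532 in Sod2-/- samples, against 9.153, 6.379, 6.485 and 7.343 in Sod2+/+ samples. Sod2+/+ replicate 17 lay among the Sod2-/- values and the other Sod2+/+ values far below them, and the log2 fold change was 1.88 (standard error 0.60, 95% interval 0.51 to 3.24, limma adjusted p = 0.128). Without Sod2+/+ replicate 17 it was 2.48 and passed (adjusted p = 0.0179), and over all alternatives tried the adjusted p ran from 0.0179 to 0.878. All 4 Shmt2 probe sets had positive values, from 0.59 to 1.82 on the other 3. Alas1, the housekeeping form of the first heme enzyme, was at -0.47 (limma adjusted p = 0.220).

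Of 10 measured genes of thiamine transport and of enzymes that use thiamine pyrophosphate, the list around Slc19a2, 0 passed, 7 had values below 0 and the median was -0.16, beside -0.05 for probe sets of like brightness. Of the 10 genes, 5 lay below the lower quartile of probe sets of like brightness and 1 above the upper one. Pdha1, the catalytic subunit of pyruvate dehydrogenase, was at -0.65 (standard error 0.15, limma adjusted p = 0.0557), and the pentose phosphate enzyme transketolase, Tkt, at -0.50 (adjusted p = 0.0929). Slc19a2 at 0.14 had the sign opposite to both.

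**Figure D4:**
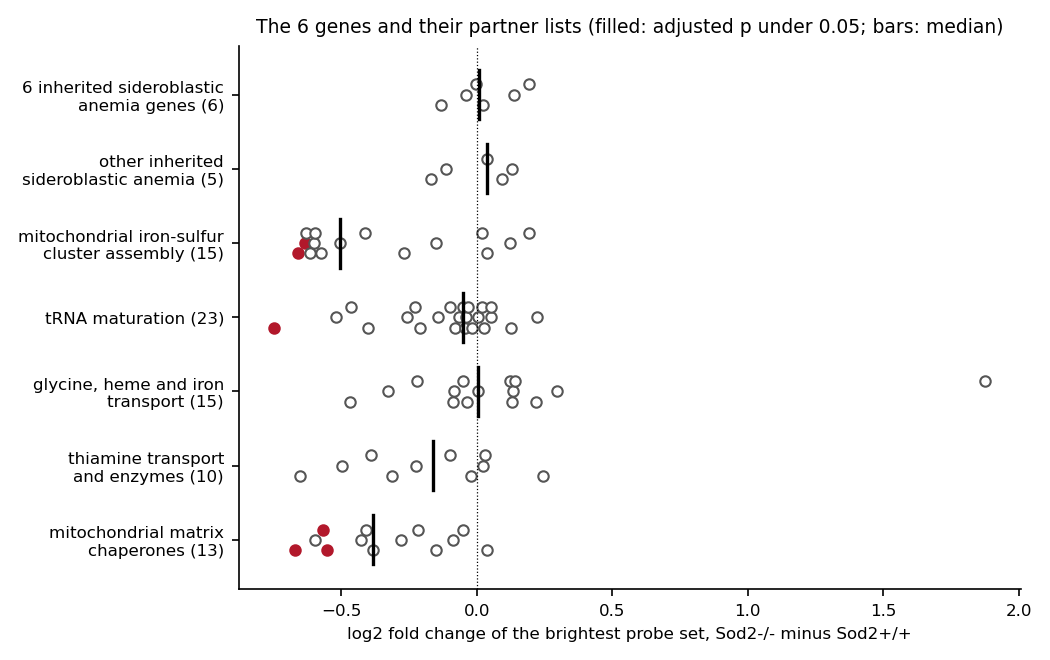
Log2 fold change of the brightest probe set of each gene, Sod2-/- minus Sod2+/+, for the 6 genes, the 5 other genes of the disorder and the 5 lists of partners, with the number measured in brackets. Filled points passed limma at an adjusted p under 0.05, and bars are medians, which lie at 0.01 for the 6 genes, -0.51 for iron-sulfur cluster assembly and -0.38 for matrix chaperones.

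Among the 18193 genes, those whose 7 centred values were closest to the profile of Hspa9 on its brightest probe set were Atp10d, Nkx2-4 and Tnfrsf11a, at root mean square differences of 0.057, 0.067 and 0.086 log2 units. The median over all genes was 0.265. These matches were dim, with means of 4.489, 4.65 and 4.754, near 4.484, the median of all probe set means. Hspa9 itself averaged 7.43 in Sod2-/- and 7.24 in Sod2+/+ samples. Closest to Slc19a2 were Vnn3, Ctsr and Rpf1, at 0.035, 0.038 and 0.040, where the median of all genes was 0.188. Their means were 5.241, 3.523 and 5.565. Whether any of these matches goes beyond noise at such levels was not tested. These 2 members had the largest absolute differences among the brightest probe sets, and the 7 arrays that the likeness rests on share the same normalization.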

How the data were processed

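Total RNA of sorted erythroblasts (3 Sod2-/- and 4 Sod2+/+ samples) was hybridized to Affymetrix mouse arrays. The deposited values are log2 values from robust multi-array averaging (RMA) by the authors, and the submitters' processing notes also name GCOS 1.3.037. No source used here says whether the array left unanalysed entered the RMA run. RMA is meant to draw arrays to a common distribution, so a shift shared by most transcripts can be hidden. The deposited values were not fully aligned. Their 95th percentile lay at 8.202 to 8.424 in Sod2-/- samples, against 8.421 to 8.713 in Sod2+/+ samples. The part of this difference in the fold changes was not tested. The values were used without further normalization or filter. Leaving 64 control probe sets aside, 45037 were tested two-sided in R 4.3.3 by limma 3.58.1 (lmFit, then eBayes, on genotype alone), with Benjamini-Hochberg adjustment over all and a threshold of 0.05. GEO's platform annotation matched 34945 probe sets to 1 gene, 932 to several and 9160 to none. Coordinates and promoter windows are from RefSeq tables of GRCm38.p6.

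The 6 genes, the lists of partners and the marker lists were chosen with earlier results of these data known. Named were all member probe sets, the measured genes of the disorder, from each list the 3 largest changes that passed or the 2 largest where none did, 6 direct partners, and the 3 profiles most like each of the 2 members with the largest change. Fluidics station and chip lot were read from the array settings. The fit was tested on simulated data. Alternatives were the methods' t-test (variances equal or unequal), robust eBayes with a trend, weights for arrays (statmod 1.5.0), quantile normalization, centring, bright probe sets alone, station and lot as blocks, each station alone, each gene's probe sets averaged, and leaving out each array. Plots used Python 3.11.15 (matplotlib 3.10.9). Precision is limited by how few arrays there are.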

Additional observations from a re-analysis of the deposited data

Results flagged for a closer look

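One value stood apart within its group. On the brightest Slc19a2 probe set, 1417902_at, Sod2+/+ replicate 37 was at 4.932, while the other Sod2+/+ samples were at 4.880, 4.883 and 4.887. Its gap to the nearest of them was 0.861 of the range of the group, above Dixon's 95% critical value for a group of 4. The gap itself is small beside Sod2-/- replicate 39 at 5.284. Chance flags about 1 in 20 groups, and 23 such groups were tested over the 6 genes and the other genes of the disorder, with 1 flag in all.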

How the results depend on the processing

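The counts over all probe sets, 1275 lower and 255 higher, depended strongly on the setting. They were 3 and 1 with the methods' t-test with equal variances, 0 and 0 with unequal variances, 826 and 656 with quantile normalization, 744 and 150 with fluidics station as a block, 735 and 82 with chip lot as a block, and 0 and 0 within each station. Centring left 163 higher, and bright probe sets alone gave 2076 lower. Without each array in turn they ran from 98 to 1149 lower and from 45 to 171 higher. Within a station 1 or 2 arrays of a genotype remain, and in station 1 the lone Sod2-/- array is assumed to vary like the others, so a count of 0 there shows no absence.

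The 6 genes kept 0 calls in every alternative but 1, in which chip lot as a block gave 1 lower probe set (1418503_at of Hspa9). Signs of small differences turned. Glrx5 was at -0.019 after centring, -0.028 within station 2 and -0.012 to 0.063 without each array. Slc25a38 was at 0.136 with quantile normalization, 0.121 with chip lot as a block, 0.025 within station 2 and -0.121 to 0.071 without each array. Trnt1 was at 0.013 with array weights, 0.135 with quantile normalization, 0.079 with chip lot as a block and -0.042 to 0.034 without each array. Hspa9 was at -0.033 with the mean of all its probe sets. Among dimmer probe sets, Slc19a2 1426117_a_at was at -0.047 within station 1 and -0.031 to 0.099 without each array, Slc19a2 1441315_s_at at -0.047 with the lot block, -0.181 within station 1 and -0.051 to 0.140 without each array, and Hspa9 1453811_at at -0.038 with the lot block and -0.031 to 0.110 without each array. Pus1 and the brightest Slc19a2 probe set kept their signs under all alternatives.

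The lists of partners lost calls readily. Iron-sulfur cluster assembly, with 2 lower genes, had 0 with either form of the methods' t-test and within each station, 1 with array weights, quantile normalization, the station block or the mean of probe sets, 6 among bright probe sets and 0 to 3 without each array. Matrix chaperones, with 3, had 0 with either t-test form, quantile normalization, the station block and within each station, and 0 to 3 without each array. The list of tRNA maturation, with 1, had 0 with either t-test form and within each station, and 0 to 1 without each array. The thiamine list, with 0, had 1 with trend and robust estimation, 2 among bright probe sets, 2 with the lot block and 0 to 1 without each array, and the glycine, heme and iron list had 1 higher gene with quantile normalization and 0 to 1 without each array. For bright probe sets alone, fewer tests are adjusted for. The cause of the other shifts was not tested. The study sorted pairs of Sod2+/+ and Sod2-/- samples in parallel, but no label says which arrays form a pair. The genotypes share no replicate number either, so no paired analysis was possible.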
